A study of Mus musculus with 24 samples.

Results

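Corticosterone-treated FMRKO mice were compared with FMRKO mice on chow, to describe how inguinal white fat responds to the glucocorticoid when the mineralocorticoid receptor is deleted in fat cells. The comparison rests on 8 of the 24 RNA-seq libraries of the series, chosen by their titles: cort FMRKO 1, 2, 3 and 4 and chow FMRKO 1, 2, 3 and 5. All were made from ribosome-depleted total RNA of inguinal white fat of male mice homozygous for a floxed Nr3c2 allele and carrying a Cre transgene under the adiponectin promoter (AdipoqCre+, MRflox/flox). That promoter is active in fat cells, so other cells of the pad keep the gene. A further 8 libraries, 4 cort control and 4 chow control, come from mice with the same floxed allele and no Cre and were used to ask whether the response differed. The sources used here state no dose, route or duration of corticosterone, no diet for the treated mice and no vehicle group. Titles of the chow libraries carry a serial number that those of the corticosterone libraries lack. If this marks a batch, it cannot be told apart from the treatment. The labels do not say that each library is a separate mouse, so each p-value speaks of the spread among libraries, which may be technical.

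Corticosterone is the main glucocorticoid of the mouse. It binds both the glucocorticoid receptor (gene Nr3c1) and the mineralocorticoid receptor (gene Nr3c2), related nuclear receptors that recognise the same DNA element. In fat, glucocorticoids are known to drive adipocyte differentiation, to alter the storage and release of triglyceride, to raise leptin and to restrain inflammation. The enzyme 11β-hydroxysteroid dehydrogenase type 1 (Hsd11b1) regenerates active steroid inside the adipocyte.

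Total counts per library ranged from 23275622 to 34799132 in the cort FMRKO group and from 17925109 to 29010546 in the chow FMRKO group. At this depth the spread between libraries set the precision (biological coefficient of variation 33.7%). Some pads carried other tissue, and the lists of marker genes show it. The lymph node list, of lymphocyte genes such as Cd3e, had a mean log2 CPM (counts scaled to library size) of -0.999, 2.48, 2.43 and -1.36 in cort FMRKO 1 to 4, against 6.12, 0.45, 5.15 and 0.77 in chow FMRKO 1, 2, 3 and 5. Summed over the list this was 306 to 552 CPM in the cort FMRKO libraries and 172 to 1954 CPM in the chow FMRKO libraries, with 0 to 2 and 0 of 21 genes at 0 in a library. Most of the sum outside chow FMRKO 1 and 3 was Ighm, an immunoglobulin gene of B and plasma cells. It had 294 to 445 CPM in the cort FMRKO group. Over all chow FMRKO libraries, chow FMRKO 1 and 3 included, it had 140.1 to 499 CPM. The whole list summed to 203 CPM in chow FMRKO 2 and 172 CPM in chow FMRKO 5. The skeletal muscle list stood at 8.71 in chow FMRKO 5, against -0.94 to 0.52 in the cort FMRKO libraries and -0.71 to 0.08 in the other chow FMRKO libraries; its sum was 50.1 to 118 CPM in the cort FMRKO group, 28521 CPM in chow FMRKO 5 and 41.4 to 161 CPM in chow FMRKO 1, 2 and 3. The epithelium list was high in cort FMRKO 3 and 4 (2.72 and 1.95) and in chow FMRKO 3 (2.23). Adipocyte genes defined the tissue in all 8 libraries, with a mean log2 CPM over the identity list of 10.03 to 10.28 in the cort FMRKO group and 9.17 to 9.99 in the chow FMRKO group. Mitochondrial transcripts took 4.53 ± 0.17% of counts with corticosterone and 3.82 ± 0.44% on chow (SD, n = 4 each, two-sided exact permutation test, p = 0.0286, the smallest p this design allows). Results are therefore also given without chow FMRKO 1 and 3, the lymph node libraries, and with chow FMRKO 2 as the only chow FMRKO library.

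**Figure D1:**
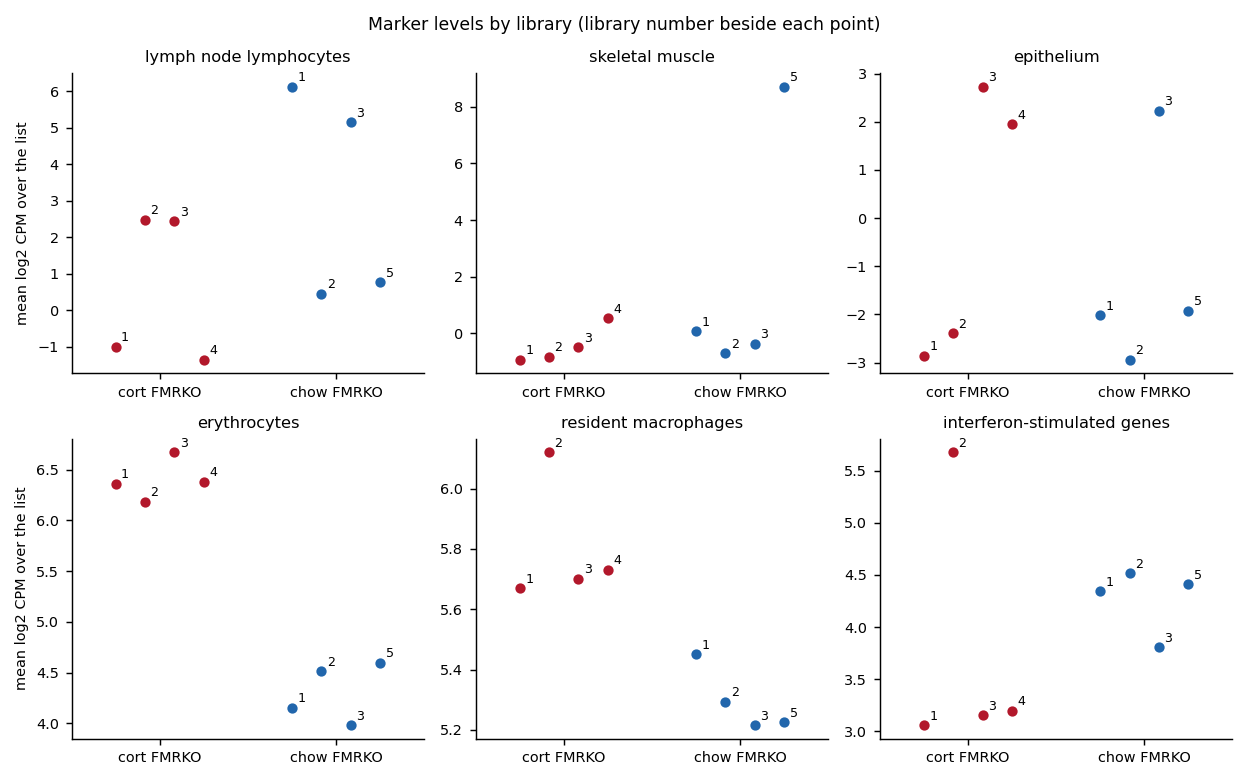
Mean log2 CPM over 6 marker lists (y axis) in each cort FMRKO library (left) and chow FMRKO library (right), with the library number beside each point. Chow FMRKO 1 and 3 stand high for lymph node genes, chow FMRKO 5 for muscle genes and cort FMRKO 2 for interferon-stimulated genes, and the 4 cort FMRKO libraries lie above the 4 chow FMRKO libraries for erythrocyte and resident macrophage genes.

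Of 19717 genes tested, 3989 were higher and 4113 lower with corticosterone in FMRKO mice, or 20.2% and 20.9% and together 41.1% (edgeR quasi-likelihood test, adjusted p under 0.05). Of these, 842 were at least 2-fold higher (4.27% of those tested) and 1954 at least 2-fold lower (9.91%). The median log2 fold change over all genes was -0.11. A list below with shares near 20.2% higher and 20.9% lower was called about as often as genes in general, and its members are described as single genes. Without the lymph node libraries the counts were 3163 higher and 2564 lower (15.4% and 12.5% of 20540 genes), and with chow FMRKO 2 as the only chow FMRKO library 1293 and 945 (6.01% and 4.39% of 21512). In that last fit the lone chow library is assumed to vary like those of the other groups. None of the genes called with all libraries was called in the opposite direction in either fit. Of the lists for other tissues, 10 of 21 lymph node genes and 16 of 18 muscle genes were called lower, and 0 of 14 epithelial genes were called (4 higher without chow FMRKO 3). Without chow FMRKO 1, cort FMRKO 1 or cort FMRKO 4 the lymph node count was 1, without chow FMRKO 3 it was 2, without cort FMRKO 3 it was 4, without chow FMRKO 2 it was 16, and without chow FMRKO 5 the muscle count was 0. A call named below held in all 17 alternative fits, or was lost only with chow FMRKO 2 as the lone chow library or in a fit without chow FMRKO 1 and 3 and cort FMRKO 2 and 3, which was set after the data were seen and called 10.7% of genes higher and 8.37% lower; other losses are stated. For genes named as called without a fold change, losses in the alternative fits are not stated. CPM values below are scaled by TMM, and means are ± SD with n = 4 libraries per group. Log2 fold changes are cort FMRKO over chow FMRKO ± an approximate standard error, and adjusted p-values cover all genes tested. This error was computed back from the test, as the size of the log2 fold change divided by the square root of the F statistic. It can be far off where the fold change is near 0.

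The targeted gene was itself lower with the hormone. Nr3c2 (ENSMUSG00000031618, GRCm38 chromosome 8, 76899442 to 77245012, plus strand) stood at 10.7, 7.73, 12.2 and 11.8 CPM in cort FMRKO 1 to 4, against 11.3, 21.96, 17.7 and 25.8 CPM in chow FMRKO 1, 2, 3 and 5. Chow FMRKO 1, a lymph node library, lay within the range of the cort FMRKO group and the other 3 chow FMRKO libraries lay above it. The log2 fold change was -0.85 ± 0.20 (adjusted p = 0.0021), and the call held in all 17 alternative fits. Reads were counted over all exons, floxed or not, and cells that lack Cre add to the value. In whole tissue, as for every gene here, fewer cells of a type and less RNA per cell cannot be told apart. In control mice, which keep the receptor, the value was -0.49 ± 0.20 (adjusted p = 0.051), and the difference between the genotypes was -0.36 ± 0.28 (adjusted p = 0.939).

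Among genes that bind, convert or chaperone the steroid, the pair that reactivates it rose. Of 16 genes on this list 3 were higher and 2 lower, against 20.2% and 20.9% of all genes called in those directions, with a median of 0.02. The count of lower genes was 1 to 4 when 1 FMRKO library was left out. Hsd11b1 (chromosome 1, 193221630 to 193264054, minus strand) had 536, 796, 389 and 538 CPM in cort FMRKO 1 to 4, against 47.3, 70.02, 58.3 and 74.2 CPM in chow FMRKO 1, 2, 3 and 5. The lowest corticosterone library lay more than 5-fold above the highest chow library, and the log2 fold change was 3.18 ± 0.26 (adjusted p = 4.0e-08). H6pd, the enzyme of the endoplasmic reticulum that supplies Hsd11b1 with NADPH, rose with it, at 858 ± 126 CPM with corticosterone against 412 ± 58.1 CPM on chow (1.06 ± 0.15, adjusted p = 2.3e-05), again without overlap. Nr3c1, the glucocorticoid receptor, had 169.5, 139, 168 and 141 CPM in cort FMRKO 1 to 4, against 152, 223, 160.1 and 205 CPM in chow FMRKO 1, 2, 3 and 5, and the groups overlapped (-0.26 ± 0.12, adjusted p = 0.078). It was called lower in 7 of the 17 alternative fits. Hsd11b2, which inactivates corticosterone, was low in both groups, at 2.802 ± 0.823 CPM with corticosterone against 2.57 ± 0.614 CPM on chow (0.13 ± 0.27, adjusted p = 0.732). Of the receptor's chaperones, Hsp90ab1 and Fkbp4 had log2 fold changes of 0.04 ± 0.14 and 0.10 ± 0.14 and did not pass.

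Most classic glucocorticoid targets were higher. Of 30 listed genes 16 were called higher and 1 lower, or 53.3% and 3.33% against 20.2% and 20.9% of all genes, and the list median was 0.76 against -0.11 for all genes. In 18 of the 30 all 4 corticosterone libraries lay above all 4 chow libraries, as did 20.2% of all genes tested. Fkbp5, a co-chaperone that lowers the receptor's affinity for its ligand (chromosome 17, 28399095 to 28517524, minus strand), had 388, 471, 328 and 452 CPM in cort FMRKO 1 to 4, against 88.6, 121, 127 and 60.02 CPM in chow FMRKO 1, 2, 3 and 5. Tsc22d3, which codes for the anti-inflammatory leucine zipper protein GILZ, had 327, 453, 331 and 433 CPM in cort FMRKO 1 to 4, against 63.01, 68.97, 94.2 and 104 CPM in chow FMRKO 1, 2, 3 and 5. Neither gene overlapped between the groups, and they rose by 2.05 ± 0.33 and 2.23 ± 0.26 on the log2 scale (adjusted p = 6.2e-05 and 1.8e-06).

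Large rises on the list were in Hif3a, a subunit related to the hypoxia-inducible factors, and Cdkn1a, the cell cycle inhibitor p21. Hif3a had 40.7, 91.2, 41.9 and 66.4 CPM in cort FMRKO 1 to 4, against 2.65, 3.39, 5.56 and 5.07 CPM in chow FMRKO 1, 2, 3 and 5. Cdkn1a had 209.9, 212, 170.1 and 224 CPM in cort FMRKO 1 to 4, against 31.6, 23.9, 29.6 and 14.5 CPM in chow FMRKO 1, 2, 3 and 5. Every treated library lay above every chow library for both genes, with log2 fold changes of 3.85 ± 0.47 and 3.03 ± 0.29. The metallothioneins Mt1 and Mt2, which bind zinc and other metals, rose by 2.00 ± 0.33 and 2.23 ± 0.44; they are close paralogs, and how the counting split their shared reads is not known. Pdk4, which holds back glucose oxidation by inhibiting pyruvate dehydrogenase, had 226, 416, 167 and 287 CPM in cort FMRKO 1 to 4, against 48.4, 62.7, 58.4 and 136 CPM in chow FMRKO 1, 2, 3 and 5. Its highest chow value was in the muscle-rich chow FMRKO 5, and the gene rose by 1.85 ± 0.37 (adjusted p = 5.4e-04). Angptl4, an inhibitor of lipoprotein lipase, rose by 1.43 ± 0.19, the arrestin family gene Arrdc2 by 1.80 ± 0.23, the transcription factor Foxo1 by 1.17 ± 0.19 and the antioxidant enzyme gene Gpx3 by 1.29 ± 0.19.

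Other targets known for rapid induction did not separate the groups. Per1 had 127, 208, 146 and 205 CPM in cort FMRKO 1 to 4, against 107, 120, 151 and 205 CPM in chow FMRKO 1, 2, 3 and 5, a log2 fold change of 0.23 ± 0.29 (adjusted p = 0.537). Sgk1, a kinase that acts downstream of both steroid receptors, had 43.8, 73.02, 39.03 and 63.5 CPM in cort FMRKO 1 to 4, against 46.6, 72.5, 52.4 and 90.3 CPM in chow FMRKO 1, 2, 3 and 5, a value of -0.26 ± 0.24 (adjusted p = 0.418). In both genes the 2 groups covered much the same range. Zbtb16, Klf9 and Klf15 had 0.70 ± 0.34, 0.45 ± 0.21 and 0.17 ± 0.26 and did not pass, and Dusp1 had 0.14 ± 0.24. The 1 listed gene that fell was Nfkbia, the inhibitor of NF-κB, at 40.6 ± 6.37 CPM with corticosterone against 65.1 ± 7.51 CPM on chow (-0.68 ± 0.16, adjusted p = 0.0025), and its groups did not overlap. The list held its count of 16 higher in each of the 8 fits that left out 1 FMRKO library. It was 14 without the lymph node libraries and 9 with chow FMRKO 2 alone, where Mt1, Mt2, Gpx3 and Nfkbia were among the calls lost.

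The DNA element shared by the steroid receptors was looked for in the 250 bases before the start of these genes, in promoters from RefSeq (GRCm38.p6). The letters searched were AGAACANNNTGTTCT, which read the same on both strands, exactly or with up to 2 mismatches in the 12 fixed positions. Of the 16 targets called higher, 13 had a promoter in the table, and 0 of them held the element at that tolerance, against 1.77% of 27025 genes with a promoter there. A gap in this window says only that these letters are not in it. An exact match stood before 3 of the 27025 genes, and 1 of these was Sgk1, which was not called. Where a gene had several starts, its best match was taken. Sgk1 has several, the exact match stands before 1 of them, and counts per gene do not show which start is used. The sequence before that start is shown, with the element in capitals, because it is the 1 exact match among 25 listed targets with a promoter (chr10:21993640-21993889, plus strand, the element lying 189 to 175 bases before this start).
Sgk1: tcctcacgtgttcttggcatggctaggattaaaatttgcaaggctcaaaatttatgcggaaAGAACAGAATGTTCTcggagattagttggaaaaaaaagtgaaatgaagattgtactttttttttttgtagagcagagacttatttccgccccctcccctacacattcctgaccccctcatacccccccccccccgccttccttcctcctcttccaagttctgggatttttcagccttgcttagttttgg

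**Figure D2:**
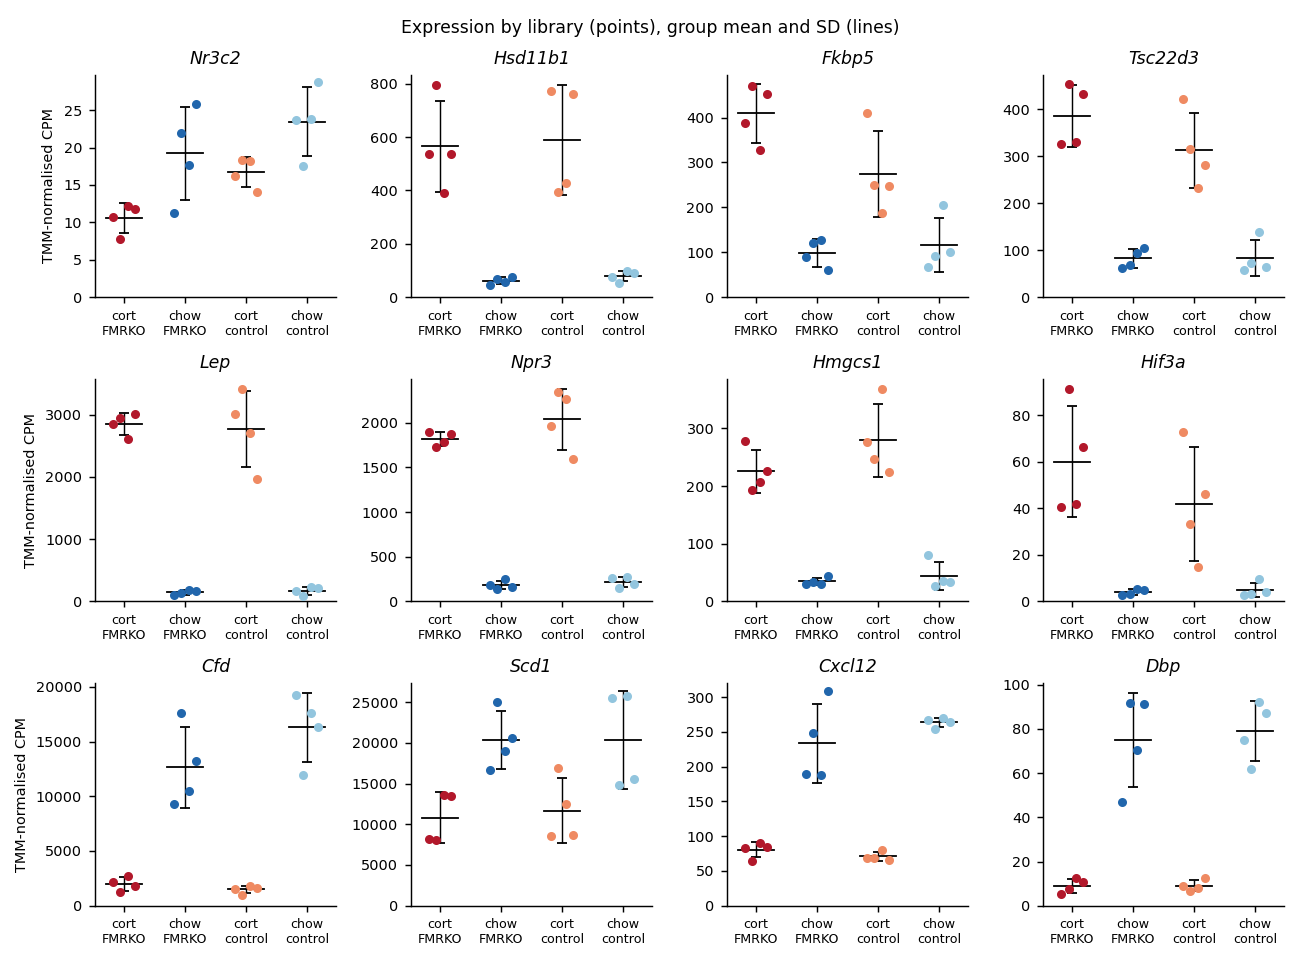
TMM-normalised CPM (y axes, linear from 0) of 12 genes in each library, with group means and SD as black lines, for cort FMRKO, chow FMRKO, cort control and chow control mice from left to right. Hsd11b1, Fkbp5, Tsc22d3, Lep, Npr3, Hmgcs1 and Hif3a are higher and Cfd, Scd1, Cxcl12 and Dbp lower in all 4 cort FMRKO libraries than in any chow FMRKO library, while Nr3c2 overlaps at chow FMRKO 1.

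Of 13 genes tied to mineralocorticoid action 4 were higher and 1 lower, or 30.8% and 7.69% against 20.2% and 20.9% of all genes, with a median of 0.08. The higher count was 2 without the lymph node libraries. The lower count was 0 without cort FMRKO 1, cort FMRKO 3, chow FMRKO 2 or chow FMRKO 5 and 2 without cort FMRKO 2. Lcn2, which codes for lipocalin 2, had 7.18, 17.9, 19.04 and 13.2 CPM in cort FMRKO 1 to 4, against 1.395, 1.48, 4.88 and 2.28 CPM in chow FMRKO 1, 2, 3 and 5. All 4 treated libraries lay above the chow libraries (2.51 ± 0.66, adjusted p = 0.005). Tsc22d3 is also on this list. Of the subunits of the epithelial sodium channel, Scnn1a had 3.704 ± 2.15 CPM with corticosterone against 3.24 ± 1.85 CPM on chow and Scnn1b 0.595 ± 0.0832 CPM with corticosterone against 0.799 ± 0.355 CPM on chow, and neither passed (0.20 ± 0.37 and -0.41 ± 0.42).

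Leptin dominated the change in secreted factors, and adipsin moved the other way. Of 18 adipokines and secreted factors 10 were higher and 3 lower (55.6% and 16.7%, against 20.2% and 20.9% of all genes), with a median of 0.85. In the fit without the lymph node libraries 6 were higher (median 0.62). Lep (chromosome 6, 29060220 to 29073877, plus strand) had 2846, 2947, 2610 and 3010 CPM in cort FMRKO 1 to 4, against 97.5, 131, 186 and 176 CPM in chow FMRKO 1, 2, 3 and 5. Each treated library was more than 10-fold above each chow library, and the log2 fold change was 4.27 ± 0.30 (adjusted p = 7.0e-09). Cfd, the complement protease adipsin, had 2197, 1216, 2713 and 1766 CPM in cort FMRKO 1 to 4, against 9326, 17600, 10470 and 13230 CPM in chow FMRKO 1, 2, 3 and 5. The ranges were far apart (-2.68 ± 0.34, adjusted p = 6.2e-06). Adipoq, the adiponectin gene whose promoter drives the Cre, had 1608, 1445, 1677 and 1447 CPM in cort FMRKO 1 to 4, against 872, 1579, 1014 and 1356 CPM in chow FMRKO 1, 2, 3 and 5, with overlapping groups (0.36 ± 0.21, adjusted p = 0.175). Sfrp5, a secreted Wnt inhibitor, rose to 103 ± 11.01 CPM with corticosterone against 14.4 ± 3.14 CPM on chow (2.84 ± 0.27), and Agt, the angiotensin precursor, to 149.6 ± 52.6 CPM with corticosterone against 32.4 ± 12.8 CPM on chow (2.21 ± 0.50). Igf1 and Nrg4, 2 growth factors, fell by 0.82 ± 0.23 and 1.05 ± 0.30 on the log2 scale.

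Adipocyte identity genes rose in part. Of 22 tested 11 were higher and 2 lower (50% and 9.09%, against 20.2% and 20.9% of all genes), with a median of 0.60. The master regulator Pparg did not pass (252 ± 17.6 CPM with corticosterone against 191 ± 61.4 CPM on chow, 0.40 ± 0.24). Besides Lep, the caveolar gene Cav1 rose by 1.49 ± 0.19, the thyrotropin receptor Tshr by 1.38 ± 0.22, the lipid droplet gene Cidec by 1.28 ± 0.23 and the fatty acid binding protein Fabp4 by 1.10 ± 0.24. The lower pair was Cfd and Adrb3, the β3-adrenergic receptor of fat cells. The count of 11 was 6 without the lymph node libraries, whose identity genes were the lowest of the group, and 2 with chow FMRKO 2 alone, with medians of 0.34 and 0.22.

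Genes of triglyceride assembly rose while the desaturase Scd1 fell. Of 25 genes for lipogenesis and triglyceride synthesis 12 were higher and 2 lower (48% and 8%, against 20.2% and 20.9% of all genes), with a median of 0.64. Without the lymph node libraries 8 were higher, with a median of 0.40, in a fit that called 15.4% of all genes higher. With chow FMRKO 2 alone the median was 0.39. Dgat2, which adds the last fatty acid, had 2494, 1480, 2498 and 1987 CPM in cort FMRKO 1 to 4, against 366, 627, 398 and 595 CPM in chow FMRKO 1, 2, 3 and 5. Mogat2, which acylates monoacylglycerol, had 8.69, 2.56, 12.1 and 9.04 CPM in cort FMRKO 1 to 4, against 0.586, 0.389, 0.711 and 1.17 CPM in chow FMRKO 1, 2, 3 and 5. Both groups were fully separate in each (2.09 ± 0.32 and 3.52 ± 0.41, adjusted p = 4.0e-05 and 2.0e-06). Thrsp, a lipogenic regulator, rose to 899.6 ± 130 CPM with corticosterone against 220 ± 59.3 CPM on chow (2.03 ± 0.38), Acly, which makes cytosolic acetyl-CoA, to 751 ± 192 CPM with corticosterone against 275 ± 47.2 CPM on chow (1.45 ± 0.25), and Agpat2 to 479 ± 67.9 CPM with corticosterone against 186 ± 48.6 CPM on chow (1.36 ± 0.30). Scd1, the stearoyl-CoA desaturase of fat, had 8244, 8040, 13550 and 13430 CPM in cort FMRKO 1 to 4, against 16690, 25050, 18980 and 20640 CPM in chow FMRKO 1, 2, 3 and 5. All treated libraries were below all chow libraries, but the change was smaller (-0.91 ± 0.33, adjusted p = 0.033). This call was lost in 9 of 17 alternatives. Leaving out chow FMRKO 2, chow FMRKO 5, cort FMRKO 1 or cort FMRKO 2 gave -0.90 to -0.79 (adjusted p over all alternatives 0.0032 to 0.140). The list's count of lower genes was 0 without chow FMRKO 5 and 1 without cort FMRKO 1, cort FMRKO 2 or chow FMRKO 2. Its paralog Scd2 rose by 1.17 ± 0.21. The regulators Srebf1 and Mlxipl had -0.02 ± 0.25 and 0.64 ± 0.26 and did not pass.

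On the lipolytic side lipase genes, a lipase inhibitor and a clearance receptor rose, and the β3-adrenergic receptor fell. Of 17 genes 9 were higher and 2 lower (52.9% and 11.8%, against 20.2% and 20.9% of all genes), with a median of 0.64. Leaving out the lymph node libraries gave 5 higher and a median of 0.41. Npr3, the receptor that clears natriuretic peptides, had 1891, 1727, 1780 and 1871 CPM in cort FMRKO 1 to 4, against 179, 141, 249.7 and 164 CPM in chow FMRKO 1, 2, 3 and 5, and the 4 treated values lay within a narrow band far above chow (3.31 ± 0.23, adjusted p = 4.6e-09). G0s2, an inhibitor of adipose triglyceride lipase, had 645, 449.8, 431 and 547 CPM in cort FMRKO 1 to 4, against 41.9, 85.6, 45.2 and 159.7 CPM in chow FMRKO 1, 2, 3 and 5 (2.64 ± 0.43). Adrb3 had 354, 227, 257 and 211 CPM in cort FMRKO 1 to 4, against 490.5, 934, 557 and 723 CPM in chow FMRKO 1, 2, 3 and 5 (-1.37 ± 0.39, adjusted p = 0.0085). Adrb3 and Npr1, the signalling receptor for natriuretic peptides (-0.60 ± 0.17), were the 2 genes called lower. The lipases differed: Mgll, which cleaves monoacylglycerol, rose by 1.15 ± 0.21, whereas Pnpla2, the triglyceride lipase, did not pass (0.41 ± 0.22). Lipe, which codes for hormone-sensitive lipase, and Abhd5, a coactivator of Pnpla2, were called higher too. So were Plin5, Adora1 and Fabp4. Prkar2b, a regulatory subunit of protein kinase A, rose by 1.49 ± 0.23.

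Of 14 genes for fatty acid uptake 9 were higher and 1 lower, or 64.3% and 7.14% against 20.2% and 20.9% of all genes, with a median of 0.76. The lower count was 0 without cort FMRKO 1, 3 or 4 or chow FMRKO 2 or 5. The higher genes included the lipoprotein lipase regulator Angptl8 (2.00 ± 0.33), and the fatty acid carriers Fabp5 (1.88 ± 0.21) and Cd36 (0.96 ± 0.19). Among 23 genes for insulin signalling and glucose uptake 7 were higher and 3 lower, or 30.4% and 13%, and 1 was lower without cort FMRKO 3, cort FMRKO 4 or chow FMRKO 3. Irs3, an insulin receptor substrate of rodent fat, had 136, 132, 102 and 122 CPM in cort FMRKO 1 to 4, against 33.4, 44.8, 24.4 and 30.4 CPM in chow FMRKO 1, 2, 3 and 5, with no overlap (1.89 ± 0.24, adjusted p = 6.2e-06). Grb14, an inhibitor of the insulin receptor, rose by 1.49 ± 0.34 and Hk2, a hexokinase, by 1.18 ± 0.23. The other genes called higher were Slc2a4, a glucose transporter gene, Foxo1, Trib3 and Grb10. Those called lower were Irs1, Hk1 and Igf1r, the first 2 being paralogs of Irs3 and Hk2. Igf1r, the IGF1 receptor, fell to 27.9 ± 2.88 CPM with corticosterone against 44.3 ± 5.42 CPM on chow (-0.67 ± 0.10, adjusted p = 4.0e-05), while Insr and Akt2 had 0.00 ± 0.17 and -0.05 ± 0.20 and did not pass.

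Cholesterol synthesis rose along nearly its whole length. Of 21 genes 18 were higher and 0 lower, or 85.7% against 20.2% of all genes called higher, with a median of 1.09. Hmgcs1, which makes the HMG-CoA that enters the pathway, had 278, 192, 207 and 225 CPM in cort FMRKO 1 to 4, against 30.9, 33.3, 31.01 and 44.5 CPM in chow FMRKO 1, 2, 3 and 5. Sc5d, a late desaturase of the sterol ring, had 164, 137, 147 and 142 CPM in cort FMRKO 1 to 4, against 32.7, 39.5, 32.4 and 44.4 CPM in chow FMRKO 1, 2, 3 and 5. Both showed a gap of severalfold between the groups (2.69 ± 0.31 and 1.99 ± 0.21, adjusted p = 1.7e-06 and 8.9e-07). The enzymes between and after them followed with smaller rises, among them Hsd17b7 (1.42 ± 0.16), Lss (1.41 ± 0.18), Dhcr7 (1.36 ± 0.15), Fdps (1.17 ± 0.20) and Sqle (1.06 ± 0.15). Srebf2, the regulator of the pathway, did not pass (-0.24 ± 0.16). The count was 15 without the lymph node libraries and 13 with chow FMRKO 2 alone, and the median stayed between 0.99 and 1.24 over the alternatives that left out or adjusted for libraries.

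Genes of mitochondrial metabolism rose by less and their calls depended on the chow libraries. Of 23 nuclear-encoded genes for oxidative phosphorylation 19 were higher and 0 lower (82.6% and 0%, against 20.2% and 20.9% of all genes), with a median of 0.59. Cycs, which codes for cytochrome c, had the largest value, 1.23 ± 0.19, and Cyc1, of complex III, rose by 0.90 ± 0.18. Uqcrc1, another complex III gene, shows the usual size, with 262, 257, 247 and 253 CPM in cort FMRKO 1 to 4, against 140.1, 195, 159 and 193 CPM in chow FMRKO 1, 2, 3 and 5. The treated libraries all lay above the chow libraries, and chow FMRKO 1 and 3 were the lowest of the 8 (0.57 ± 0.16, adjusted p = 0.0081; without these 2, 0.42, adjusted p = 0.111, with a range of 0.0024 to 0.336 over all alternatives). Without the lymph node libraries the count was 5 of 23 and the median 0.46, in a fit that called 15.4% of all genes higher. With the lymph node and muscle scores as covariates the count was 6, where 15.8% of all genes were higher. With chow FMRKO 2 alone the median was 0.36. Of 24 genes for fatty acid oxidation and the TCA cycle 13 were higher and 0 lower, or 54.2% and 0%. They were led after Pdk4 by Idh3a (1.29 ± 0.24), Acadm (1.10 ± 0.21) and Acaa2 (1.07 ± 0.18). The count was 6 without the lymph node libraries. Cpt1a, the gate of mitochondrial fatty acid entry, had 0.07 ± 0.15. Of 20 genes for branched-chain amino acid breakdown 7 were higher and 0 lower, or 35% and 0%. Without the lymph node libraries 2 of the 20 were higher, in a fit that called 15.4% of all genes higher. In that fit, or without chow FMRKO 3 alone, 1 was lower. Lymphocyte transcripts move with these counts, and their part in them was not tested beyond these fits.

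Of 15 thermogenic genes 4 were higher and 2 lower, or 26.7% and 13.3% against 20.2% and 20.9% of all genes, with 2 higher without chow FMRKO 1, chow FMRKO 3 or cort FMRKO 4, and 0 higher without the lymph node libraries. Ucp1, the uncoupling protein of brown fat, had 0.552, 1.502, 2.88 and 1.25 CPM in cort FMRKO 1 to 4, against 0.112, 0.467, 1.16 and 0.8104 CPM in chow FMRKO 1, 2, 3 and 5, with overlapping groups (1.30 ± 0.92, adjusted p = 0.266). With all libraries the genes called higher were Dio2, Prdm16, Gk and Slc25a44, and those called lower were Cox8b and Tmem26. Cox8b, a respiratory chain subunit enriched in brown fat, fell to 5.51 ± 2.61 CPM with corticosterone against 24.5 ± 6.84 CPM on chow (-2.14 ± 0.44, adjusted p = 7.1e-04).

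Of 25 extracellular matrix genes 5 were higher and 7 lower, shares of 20% and 28% that lie near the 20.2% and 20.9% of all genes. The median was -0.28, and without chow FMRKO 2, 4 were lower and the median was -0.07. Lox, the enzyme that cross-links collagen, had 614, 878, 490.4 and 690 CPM in cort FMRKO 1 to 4, against 117, 153, 165 and 128 CPM in chow FMRKO 1, 2, 3 and 5, a rise of 2.25 ± 0.24 (adjusted p = 8.0e-07). Col4a1 and Col4a2, the main chains of basement membrane collagen, rose by 0.95 ± 0.18 and 1.32 ± 0.18, and Sparc, a collagen-binding protein, by 0.94 ± 0.19. Col6a3, a microfibrillar collagen, had 566, 323, 559 and 592 CPM in cort FMRKO 1 to 4, against 1029, 1702, 1006 and 1200 CPM in chow FMRKO 1, 2, 3 and 5 (-1.28 ± 0.28, adjusted p = 0.0011). Col1a2 fell to 759 ± 211 CPM with corticosterone against 1592 ± 392 CPM on chow (-1.07 ± 0.33), and the gelatinase Mmp2 to 88.9 ± 26.6 CPM with corticosterone against 215 ± 52.5 CPM on chow (-1.27 ± 0.27). Col1a1 had -0.73 ± 0.39 and did not pass.

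Markers of preadipocytes and stromal fibroblasts were mostly lower. Of 21 genes 12 were lower and 3 higher (57.1% and 14.3%, against 20.9% and 20.2% of all genes), with a median of -0.79. Pdgfra, the receptor that marks adipocyte progenitors, had 92.4, 68.3, 101 and 88.7 CPM in cort FMRKO 1 to 4, against 128, 192, 166 and 168 CPM in chow FMRKO 1, 2, 3 and 5, without overlap (-0.90 ± 0.16, adjusted p = 2.3e-04). Pdgfrb (-0.87 ± 0.15), Dpp4, a marker of early progenitors (-1.45 ± 0.33), and Wnt2 (-1.57 ± 0.45) also fell. The higher genes included Zfp423 (1.26 ± 0.19) and Ebf1 (0.76 ± 0.11), transcription factors of the adipocyte lineage. The count of 12 was 10 without the lymph node libraries and 2 with chow FMRKO 2 alone, with medians of -0.81 and -0.83. Endothelial markers were lower as well, with 10 of 19 lower and 1 higher (52.6% and 5.26%) and a median of -0.43. The higher count was 0 without cort FMRKO 1, cort FMRKO 4 or the lymph node libraries. The lower genes included Tek (-0.73 ± 0.19), Vwf (-0.71 ± 0.19) and Sox17 (-1.36 ± 0.27). Schwann cell genes gave 5 lower and 1 higher of 9 (55.6% and 11.1%), with a median of -1.26. Without the lymph node libraries the counts were the same, and with chow FMRKO 2 alone the median was -0.86. Summed over the list the groups overlapped, at 284 to 314 CPM in the cort FMRKO libraries and 188 to 350 CPM in the chow FMRKO libraries.

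Macrophage markers were higher, and part of them are known from lipid-laden cells. Of 20 resident macrophage genes 11 were higher and 1 lower (55% and 5%, against 20.2% and 20.9% of all genes), with a median of 0.69. Cd68, a lysosomal marker of macrophages, had 117, 234, 119 and 163 CPM in cort FMRKO 1 to 4, against 48.9, 49.4, 36.4 and 31.5 CPM in chow FMRKO 1, 2, 3 and 5. All treated libraries exceeded all chow libraries (1.93 ± 0.46, adjusted p = 0.0024), with cort FMRKO 2 the highest. Lyve1 and Vsig4, markers of resident macrophages, rose by 1.46 ± 0.25 and 2.39 ± 0.48, the scavenger receptor Cd163 by 0.95 ± 0.22 and the complement gene C1qc by 1.02 ± 0.23. Cx3cr1, a chemokine receptor of monocytes and macrophages, was the 1 gene called lower (-2.25 ± 0.64), but without the lymph node libraries it did not pass (-1.13, adjusted p = 0.251, with a range of 0.0012 to 0.291 over all alternatives). Of 16 genes of lipid-associated macrophages 9 were higher and 2 lower (56.2% and 12.5%), with a median of 1.18. When 1 FMRKO library was left out, 0 to 2 were lower. Trem2, the lipid receptor that defines them, had 17.8, 33.1, 16.99 and 22.5 CPM in cort FMRKO 1 to 4, against 1.87, 6.27, 1.88 and 3.04 CPM in chow FMRKO 1, 2, 3 and 5 (2.80 ± 0.78, adjusted p = 0.0077). Without the lymph node libraries it no longer passed (2.30, adjusted p = 0.099, with a range of 0.0011 to 0.410 over all alternatives). Lgals3, a galectin, rose by 1.95 ± 0.47. Fabp5, Plin2 and Lpl on this list are also made by adipocytes. The resident list held 7 higher without the lymph node libraries and 2 with chow FMRKO 2 alone, with medians of 0.80 and 0.69. In the lipid-associated list these counts were 3 and 1, with medians of 1.01 and 0.77. Leaving out cort FMRKO 2, the highest library for the resident list, gave 9 higher resident and 7 higher lipid-associated genes.

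Of 22 inflammatory mediators 4 were higher and 4 lower, 18.2% in each direction and thus near the 20.2% and 20.9% of all genes. Those called higher were the chemokine genes Ccl2, Ccl3 and Ccl4 and Il1rn. Those called lower were Ccl5, Ccl8, Cxcl12 and Icam1. Without cort FMRKO 2 the counts were 1 and 7. The higher count was also 1 without chow FMRKO 3 or 5 or the lymph node libraries, and 2 without chow FMRKO 1 or cort FMRKO 4. Il1rn, the antagonist of the interleukin-1 receptor, had 11.9, 31.3, 14.3 and 22.8 CPM in cort FMRKO 1 to 4, against 2.399, 3.19, 0.582 and 0.912 CPM in chow FMRKO 1, 2, 3 and 5 (3.49 ± 0.85, adjusted p = 0.0028). Cxcl12, a stromal chemokine, had 82.7, 64.98, 90.5 and 84.9 CPM in cort FMRKO 1 to 4, against 189.6, 248, 188 and 308 CPM in chow FMRKO 1, 2, 3 and 5, the clearest fall of the list (-1.53 ± 0.14, adjusted p = 1.2e-07). The chemokine Ccl8 fell by 2.31 ± 0.69 on the log2 scale. Ccl5, a T cell chemokine, had -4.41 ± 1.00, with 1.47, 4.24, 3.14 and 0.786 CPM in cort FMRKO 1 to 4, against 85.3, 4.32, 108 and 6.13 CPM in chow FMRKO 1, 2, 3 and 5. Its chow values were highest in the lymph node libraries, and without them the value was -1.09 (adjusted p = 0.366, with a range of 5.2e-06 to 0.699 over all alternatives). Tnf and Il1b did not pass (-0.79 ± 0.76 and -1.40 ± 0.91).

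Of 20 acute phase and complement genes 7 were higher and 5 lower, or 35% and 25% against 20.2% and 20.9% of all genes. The lower share lies near that of all genes, so the genes called lower are described singly. Without the lymph node libraries 5 were higher and 5 lower. Hp, which codes for haptoglobin, had 6759, 6985, 4998 and 5312 CPM in cort FMRKO 1 to 4, against 912, 1482, 1063 and 1534 CPM in chow FMRKO 1, 2, 3 and 5 (2.27 ± 0.27, adjusted p = 2.9e-06). Serpina3n, a protease inhibitor, rose to 1133 ± 240.3 CPM with corticosterone against 348 ± 77.8 CPM on chow (1.70 ± 0.21), and Orm1 and Lbp, an acute phase carrier and the lipopolysaccharide-binding protein, by 1.16 ± 0.25 and 1.00 ± 0.25. The complement genes called lower were C3, C4b, C1ra and Cfd. C3 had 1022, 1309, 1053 and 874 CPM in cort FMRKO 1 to 4, against 1607, 1855, 1784 and 2280 CPM in chow FMRKO 1, 2, 3 and 5 (-0.82 ± 0.22, adjusted p = 0.0051), and C4b fell by 1.01 ± 0.16 and C1ra by 0.57 ± 0.12 on the log2 scale. Saa1, which codes for serum amyloid A, was also called lower (-5.33 ± 2.10), but chow FMRKO 5 alone carried 6.84 CPM and without it the value was 0.17 (adjusted p = 0.967, with a range of 0.025 to 1.000 over all alternatives).

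Interferon-stimulated genes were decided by 1 library. Isg15, a ubiquitin-like protein, had 3.42, 46.3, 2.67 and 3 CPM in cort FMRKO 1 to 4, against 6.499, 7.05, 3.59 and 5.32 CPM in chow FMRKO 1, 2, 3 and 5. Ifit1, an RNA sensor, had 2.87, 44.04, 3.06 and 5.68 CPM in cort FMRKO 1 to 4, against 10.7, 13.4, 4.397 and 10.8 CPM in chow FMRKO 1, 2, 3 and 5, and Irf7, a transcription factor of the interferon response, 21.8, 151, 26.2 and 28.2 CPM in cort FMRKO 1 to 4, against 37.01, 56.7, 34.6 and 51.2 CPM in chow FMRKO 1, 2, 3 and 5. In each, cort FMRKO 2 was the highest of the 8 libraries, the other 3 treated libraries were below all or all but 1 of the chow libraries, and the groups overlapped. Of 23 genes 0 were called higher and 1 lower (0% and 4.35%, against 20.2% and 20.9% of all genes), with a median of -0.15. Without cort FMRKO 2, 18 were lower and 0 higher, with a median of -0.96, and leaving out any other FMRKO library gave at most 1 in either direction. The log2 fold change of Irf7 was 0.34 ± 0.44 with all libraries and -0.82 ± 0.25 without cort FMRKO 2. Irf1, which responds to interferon-γ, was the 1 gene lower with all libraries (-0.99 ± 0.18, adjusted p = 2.3e-04). In control mice 18 of the 23 were lower with corticosterone (median -1.26).

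**Figure D3:**
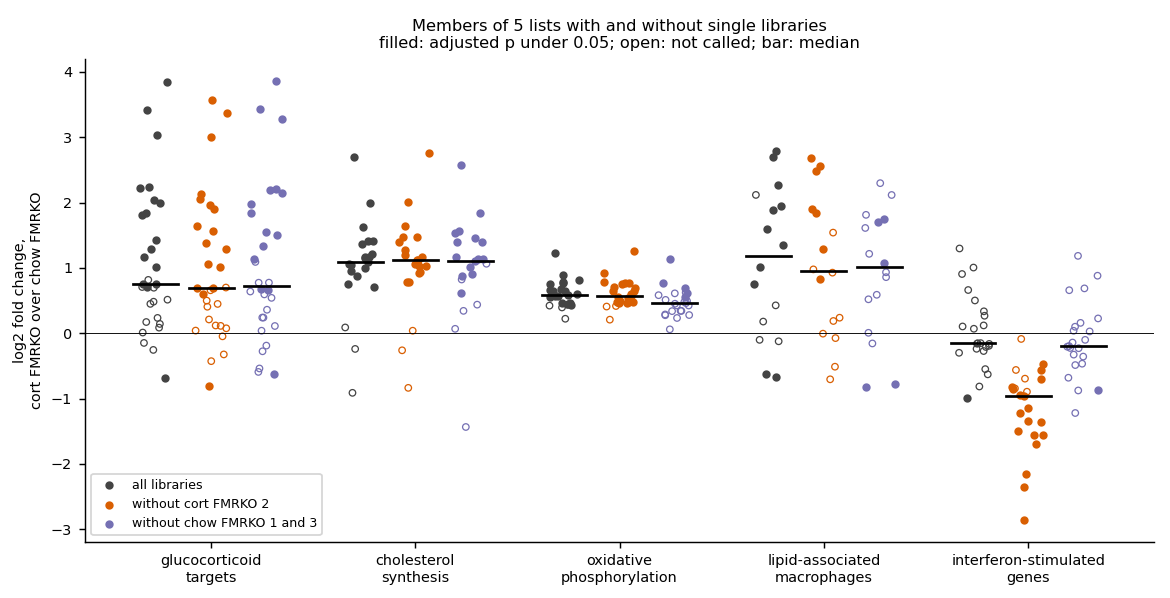
Log2 fold changes (y axis, cort FMRKO over chow FMRKO) of the members of 5 lists with all libraries, without cort FMRKO 2 and without chow FMRKO 1 and 3; filled points passed an adjusted p of 0.05 and bars are list medians. Glucocorticoid targets and cholesterol synthesis stay nearly the same, oxidative phosphorylation and lipid-associated macrophage genes lose calls without chow FMRKO 1 and 3, and interferon-stimulated genes drop to a median of -0.96 without cort FMRKO 2.

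Clock genes of both arms changed. Of 19 genes 5 were higher and 10 lower (26.3% and 52.6%, against 20.2% and 20.9% of all genes), with a median of -0.60. Dbp, an output factor of the clock, had 5.302, 7.64, 12.4 and 10.8 CPM in cort FMRKO 1 to 4, against 46.9, 91.8, 70.4 and 91.2 CPM in chow FMRKO 1, 2, 3 and 5. Nr1d2, a repressor of Arntl, had 26.7, 34.3, 40.4 and 34.1 CPM in cort FMRKO 1 to 4, against 73.9, 114, 81.1 and 115 CPM in chow FMRKO 1, 2, 3 and 5. Neither overlapped (-3.05 ± 0.28 and -1.50 ± 0.15, adjusted p = 1.4e-07 and 3.1e-07). Per3 (-1.46 ± 0.22), Ciart (-2.04 ± 0.37) and Bhlhe40 (-1.61 ± 0.29) also fell. Arntl, the core activator, had 31.7, 23.3, 16.8 and 22.9 CPM in cort FMRKO 1 to 4, against 15.98, 9.85, 11.9 and 4.46 CPM in chow FMRKO 1, 2, 3 and 5 (1.16 ± 0.27), and Clock and Nfil3 rose by 0.82 ± 0.13 and 1.24 ± 0.22. Per2, Cry1 and Cry2 did not pass (0.20 ± 0.21, 0.35 ± 0.19 and 0.25 ± 0.17). The sources used here give no time of day of collection, and its part in these values was not tested.

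Erythrocyte genes were higher in every treated library. All 7 listed genes were called higher, against 20.2% of all genes, with a median of 2.10. Hba-a1, an α-globin gene, had 1569, 1376, 1819 and 1677 CPM in cort FMRKO 1 to 4, against 278, 294, 213 and 349 CPM in chow FMRKO 1, 2, 3 and 5 (2.51 ± 0.33, adjusted p = 8.0e-06). Its copy Hba-a2 rose by 2.10 ± 0.33, and how reads were split between these near-identical genes is not known. Alas2, of erythroid haem synthesis, rose by 1.17 ± 0.28 and the β-globin gene Hbb-bs by 2.49 ± 0.32. The count was 6 without the lymph node libraries and 4 with chow FMRKO 2 alone.

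Outside the lists, several of the largest rises were in genes with few reads on chow. A rule named the 15 genes with the largest change and the 10 with the smallest p in each direction among genes with a symbol and at least 1 CPM in the higher group that were called, did not overlap and kept their call without chow FMRKO 1 and 3 and without chow FMRKO 5. These conditions were met by 2533 higher and 1238 lower genes. Hspb7, a small heat shock protein known from muscle and heart (chromosome 4, 141420779 to 141425311, plus strand), had 292, 405, 139 and 269.6 CPM in cort FMRKO 1 to 4, against 1.199, 3.85, 0.5497 and 4.204 CPM in chow FMRKO 1, 2, 3 and 5, a log2 fold change of 6.88 ± 0.63. Ripply1, a transcriptional co-repressor, had 36, 109, 28 and 90 reads in cort FMRKO 1 to 4 and 0 reads in all 4 chow FMRKO libraries, which makes it at least 73.7-fold higher, taking a floor of 3 reads over the chow group. Rnase2a, a ribonuclease of the eosinophil family, had 417 reads over the cort FMRKO group and 2 over the chow FMRKO group, a ratio of 175 after scaling (95% interval 48.2 to 1450, counting error only). Lipf, a gastric lipase gene, had 177 and 4 reads, a ratio of 37.2 (14.3 to 138). Hmga2, a chromatin protein active in growing tissue, had 3.46, 18.1, 3.03 and 9.79 CPM in cort FMRKO 1 to 4, against 0.279, 0.389, 0.323 and 0.101 CPM in chow FMRKO 1, 2, 3 and 5 (4.92 ± 0.84). Cyp4a14, a fatty acid ω-hydroxylase, had 5.596, 42.8, 10.1 and 8.46 CPM in cort FMRKO 1 to 4, against 0, 0, 0.194 and 1.32 CPM in chow FMRKO 1, 2, 3 and 5, with cort FMRKO 2 far above the other treated libraries (5.61 ± 1.38). Pkp1, a desmosomal protein, rose by 5.56 ± 0.73 and Cpne9, a copine, by 4.90 ± 0.42.

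Among the rises with the smallest p, Folh1, a glutamate carboxypeptidase, had 39.3, 41.8, 33.2 and 33.1 CPM in cort FMRKO 1 to 4, against 2.57, 2.53, 2.85 and 2.28 CPM in chow FMRKO 1, 2, 3 and 5. Prdx6, a peroxidase that repairs oxidised phospholipids, had 871, 768, 565 and 709 CPM in cort FMRKO 1 to 4, against 84.9, 102, 108 and 99.4 CPM in chow FMRKO 1, 2, 3 and 5, and Fhl1, a LIM domain protein, 466, 476, 421 and 524 CPM in cort FMRKO 1 to 4, against 32.9, 56.4, 50.2 and 59.3 CPM in chow FMRKO 1, 2, 3 and 5. The treated libraries of each kept close to one another, several times above chow (3.85 ± 0.20, 2.88 ± 0.18 and 3.25 ± 0.20, adjusted p = 1.5e-10, 2.2e-09 and 2.2e-09). Cdr2, Dhx32 and Olfm1 rose by 3.63 ± 0.20, 1.92 ± 0.12 and 2.36 ± 0.16. Among the falls, Celsr2, an adhesion receptor of the cadherin family, had 19.1, 13.5, 33.5 and 24.6 CPM in cort FMRKO 1 to 4, against 124, 327, 189 and 266 CPM in chow FMRKO 1, 2, 3 and 5 (-3.32 ± 0.34, adjusted p = 4.7e-07). Prtn3, which codes for proteinase 3 and whose gene lies near Cfd on chromosome 10, had 1.18, 2.43, 2.65 and 1.39 CPM in cort FMRKO 1 to 4, against 17.9, 40.7, 24.4 and 63.8 CPM in chow FMRKO 1, 2, 3 and 5 (-4.26 ± 0.44). The groups did not overlap for these genes, as the rule required. Cish, a feedback inhibitor of cytokine signalling, fell to 2.36 ± 0.843 CPM with corticosterone against 22.99 ± 15.1 CPM on chow (-3.27 ± 0.61), and Sele, which codes for E-selectin of activated endothelium, to 0.379 ± 0.231 CPM with corticosterone against 2.97 ± 0.811 CPM on chow (-2.93 ± 0.57). Ciita, the activator of MHC class II genes, had 3.76, 6.41, 9.49 and 2.57 CPM in cort FMRKO 1 to 4, against 106, 21.6, 47.6 and 25.2 CPM in chow FMRKO 1, 2, 3 and 5 (-3.17 ± 0.60). Its values were highest in the lymph node libraries. Without them the log2 fold change was -2.04, and the rule that named the gene required a call there. Col27a1 (-2.33 ± 0.23) and the chromatin factor Jarid2 (-0.88 ± 0.09) were among the smallest p.

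The response was then set against that of control mice, which keep the receptor in fat cells and share no library with this comparison. In controls 3986 genes rose and 4467 fell, or 20.2% and 22.7% of genes tested and 42.9% together. Of the genes called higher in FMRKO mice 82.4% were also called higher in controls, and the share of the control calls was the same, 82.4%. Of the genes called lower, 2803 were shared, 68.1% of the FMRKO calls and 62.7% of the control calls. Opposite calls were made for 0 genes higher and 3 genes lower in FMRKO mice. Across all 19717 genes the log2 fold changes had a Pearson's r of 0.60 and a Spearman's rho of 0.77; genes are not independent replicates, and all libraries share 1 scaling. Without the lymph node libraries the same values were 0.44 and 0.68.

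The difference of the response between the genotypes was tested directly, and 0 genes passed in edgeR (0% of those tested; smallest adjusted p 0.418). At an unadjusted p under 0.05 there were 1171 genes, and DESeq2 called 4. For the main genes, values in FMRKO mice stand beside those in controls. Lep changed by 4.27 ± 0.30 in FMRKO mice and 4.00 ± 0.30 in controls, Hsd11b1 by 3.18 ± 0.26 and 2.89 ± 0.26, and Hmgcs1 by 2.69 ± 0.31 and 2.67 ± 0.31. Fkbp5 changed by 2.05 ± 0.33 and 1.23 ± 0.32, a difference of 0.81 ± 0.44 (adjusted p = 0.860). Per1 had 0.23 ± 0.29 in FMRKO mice and -0.67 ± 0.29 in controls, with a difference of 0.91 ± 0.41 (adjusted p = 0.818), and Sgk1 had -0.26 ± 0.24 and -0.78 ± 0.24. Macrophage genes differed in count without a difference that passed. Trem2 had 2.80 ± 0.78 in FMRKO mice and 0.03 ± 0.72 in controls (difference 2.77 ± 1.05, adjusted p = 0.748), where chow control 2 alone reached 64.02 CPM. Corticosterone raised 11 resident macrophage genes and lowered 1 in FMRKO mice, against 2 and 3 in controls. A p that misses the threshold does not show that the genotypes responded alike. In simulated data of this size, with 200 genes changed, the test recovered 30% of 2-fold and 61% of 4-fold differences.

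**Figure D4:**
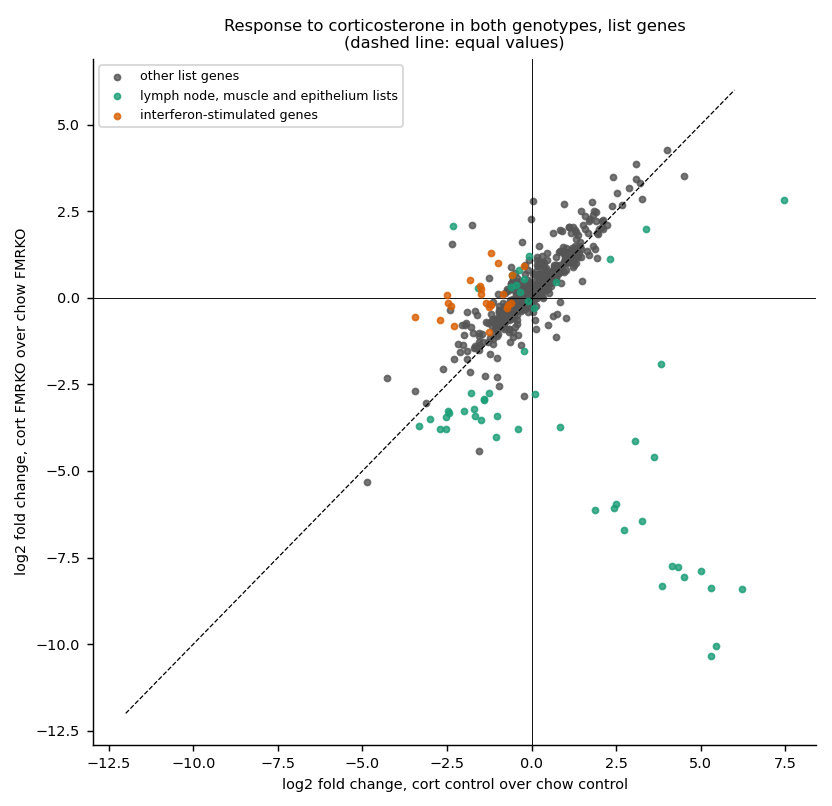
Log2 fold change with corticosterone of each list gene in FMRKO mice (y axis) against control mice (x axis), with a dashed line of equal values. Most genes lie near the line, muscle genes depart to the lower right, where chow FMRKO 5 and a muscle-rich cort control library sit, and interferon-stimulated genes lie above it, where cort FMRKO 2 was high.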

How the data were processed

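RNA-seq of inguinal white fat from 24 mouse samples gave 1 table per library with 3 values per gene. The deposited counts are the authors' whole-number read counts per gene, from STAR 2.5.1a alignments to GRCm38 counted by featureCounts 1.4.6p-5 (Subread), per the submitters' processing notes. The sources used here give no annotation release, strand setting or treatment of multi-mapping reads. The authors' deposited CPM (counts scaled to the library total) and RPKM (CPM per kilobase of gene) were recomputed from the counts to within 1e-06 and were not otherwise used. Gene symbols came from the Ensembl identifiers of the reference tables (97.3% of 41388 genes). No levels were compared between genes.

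Counts were filtered with edgeR's filterByExpr (minimum count 10), scaled by TMM and tested with edgeR 4.0.16 (R 4.3.3), quasi-likelihood F test, in 1 model of the 6 groups (18 residual degrees of freedom). Contrasts were corticosterone minus chow in FMRKO mice, the same in control mice, and their difference, with Benjamini-Hochberg adjustment over 19717 genes. Libraries were grouped by their titles and labels. No pair of libraries in a group agreed within sampling noise (lowest chi-square per degree of freedom 12.6). On simulated data of the FMRKO comparison the fit recovered 46% of 2-fold and 70% of 4-fold changes (100 genes each). There were 4 false calls among the unchanged genes. Only 200 of 19717 genes were changed there, whereas 41.1% were called in the data, so recovery in the real comparison may differ. Intervals and floors cover counting error only.

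The lists and genes described were chosen with earlier results of these data known. Besides list members, the text names, in each direction, the 15 genes with the largest change and the 10 with the smallest p that passed, had a symbol and a mean of at least 1 CPM in the higher group, did not overlap between groups and kept their call without chow FMRKO 1 and 3 and without chow FMRKO 5. Alternatives were DESeq2 1.42.0, its size factors, no filter, only the groups compared, a replicate block, marker scores as covariates, and leaving out libraries singly or together.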

Additional observations from a re-analysis of the deposited data

Results flagged for a closer look

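In 190 groups of 4 libraries (genes described in detail and list means, in the cort FMRKO and chow FMRKO groups) a library was looked for whose gap to its nearest neighbour exceeded Dixon's 95% limit of the group's range. Chance gives about 1 such library in every 20 groups, and 12 were found in the 190 groups, near that rate. The groups overlap, since Isg15, Ifit1 and Irf7 also enter the mean of the interferon list. Cort FMRKO 2 accounted for 8. Its interferon-stimulated genes averaged 5.68 log2 CPM, the highest of its group, with Isg15 at 46.3, Ifit1 at 44.0 and Irf7 at 151 CPM. It was also highest for Cyp4a14, the fatty acid hydroxylase, at 42.8 CPM, and for the resident macrophage list, at 6.12 log2 CPM. It was lowest for the collagen gene Col6a3, at 323 CPM, and for the Schwann cell list, at 1.93 log2 CPM.

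Chow FMRKO 5 accounted for the other 4, each the highest of its group. Its skeletal muscle list stood at 8.71 log2 CPM. Pdk4, which muscle also expresses, was at 136 CPM and Cyp4a14 at 1.32 CPM, and its cholesterol synthesis list averaged 4.00 log2 CPM.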

How the results depend on the processing

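With all libraries 3989 genes were higher and 4113 lower with corticosterone in FMRKO mice. Leaving out 1 FMRKO library at a time gave 3438 to 4115 higher and 3134 to 4046 lower. With chow FMRKO 2 as the only chow library the counts were 1293 and 945, in a fit with fewer samples. Without chow FMRKO 1 and 3, 2564 genes were lower, and with lymph node and muscle scores as covariates 2710. Without chow FMRKO 1 and 3 and cort FMRKO 2 and 3, a setting added after seeing the data, 2185 were higher and 1712 lower. In control mice leaving out 1 library gave 3685 to 4061 higher and 3420 to 4417 lower. The difference between genotypes kept 0 calls in both directions when any library was left out; DESeq2 gave 2 higher and 2 lower, and the fit with chow FMRKO 2 alone 1 lower. No gene called with all libraries was called in the opposite direction in any of the 17 alternatives.

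Whether the replicate numbers pair the libraries cannot be settled from so few of them. Deviations of libraries with the same number correlated by -0.17, -0.29 and 0.29 for numbers 1, 2 and 3. Those of libraries with different numbers correlated by -0.29 to 0.36. With the number as a replicate block 3941 genes were higher and 3736 lower.

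Among 172 of the genes named in the text, 2789 of the values under an alternative kept their direction and side of the threshold. A further 107 lost the call and 19 gained one. The sign turned, with a call on either side, for Ifit1 (-1.34) and Irf7 (-0.82) without cort FMRKO 2, which the fit without 4 marker-rich libraries also leaves out (-1.49 and -1.10). It turned for Saa1 without chow FMRKO 5 (0.17), and for Cd3e without chow FMRKO 1 and 3 (0.87) and with chow FMRKO 2 alone (1.13). Leaving out 1 FMRKO library at a time gave -1.34 to 0.84 for Ifit1, -0.82 to 0.58 for Irf7 and -8.56 to 0.17 for Saa1. The cause was not tested.

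Low counts limit genes such as Ripply1 and Cyp4a14, and the uneven lymph node and muscle content of the chow FMRKO libraries limits every list that those tissues express.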

Other observations

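Of 21 mitotic and replication genes 3 were higher and 0 lower with corticosterone in FMRKO mice, or 14.3% against 20.2% of all genes called higher, with a median of 0.47 against -0.11 for all genes. Without the lymph node libraries 5 were higher, with a median of 0.95, while 15.4% of all genes were higher. With lymph node and muscle scores as covariates 5 were higher, with a median of 0.86. Leaving out 1 FMRKO library gave 2 to 4 higher, and without cort FMRKO 2 the median was 0.29. Ube2c, a ubiquitin-conjugating enzyme of mitosis, had 7.52 ± 1.45 CPM with corticosterone against 2.04 ± 0.498 CPM on chow (1.87 ± 0.40), and Pcna, the sliding clamp of DNA polymerase, 41.6 ± 4.04 CPM with corticosterone against 25.8 ± 5.15 CPM on chow (0.69 ± 0.15). Of 18 immediate-early genes 2 were higher and 1 lower, or 11.1% and 5.56%. The higher count was 1 without cort FMRKO 2, cort FMRKO 4, chow FMRKO 1 or chow FMRKO 3, and the lower count 0 without cort FMRKO 1, 2 or 4 or chow FMRKO 1. Klf6 rose by 0.87 ± 0.12, and Egr1, a classic gene of this class, did not pass (-0.85 ± 0.52, adjusted p = 0.198). Of 9 neutrophil and mast cell genes 0 were higher and 3 lower, or 0% and 33.3% against 20.2% and 20.9% of all genes. They included Elane, neutrophil elastase, whose gene lies near those of Prtn3 and Cfd, at 0.808 ± 0.687 CPM with corticosterone against 2.75 ± 1.29 CPM on chow (-1.77 ± 0.51); this call was lost when only the groups compared entered the fit. Mcpt4, a mast cell protease, had 12.4 ± 5.43 CPM with corticosterone against 27.8 ± 4.61 CPM on chow (-1.16 ± 0.31).

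The 4 genes that DESeq2 called for a difference of the response between FMRKO and control mice were Rpl9-ps7, a ribosomal protein pseudogene (-1.24 on the log2 scale, adjusted p = 0.035), Igfbp7 (0.72, 0.043), Ltf (18.5, 0.0055) and Actn2 (-8.49, 0.035). Actn2 is a muscle gene. Ltf, an epithelial and neutrophil gene, had 43.4 and 16.9 CPM in cort FMRKO 3 and 4 and 14.03 CPM in chow FMRKO 3, the libraries with epithelial transcripts, and at most 0.07895 CPM in the control libraries, so that its fitted change is no measure of size. edgeR gave adjusted p-values of 0.418 for Rpl9-ps7, Igfbp7 and Actn2 and 0.980 for Ltf.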
